A study of Mus musculus with 36 samples.

Results

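Oxidative phosphorylation genes were followed across macrophages sorted from mouse hearts after ischemia. They were taken by name from the protein-coding rows of the deposited gene table, as the Nduf, Uqcr, Atp5 and Cox4 to Cox8 families with Sdha, Sdhb, Sdhc, Sdhd and Cyc1 from the nucleus, and the mt-Nd, mt-Co, mt-Cy and mt-Atp genes from the mitochondrial genome. This gave 96 of 12795 genes: 89 nuclear genes and 7 mitochondrially encoded genes, kept apart throughout. Sorted by name alone, the nuclear genes were 38 of complex I, 7 complex I assembly factors, 4 of complex II, 9 of complex III, 16 of complex IV and 15 of complex V. The mitochondrial genes were mt-Nd1, mt-Nd2, mt-Nd4, mt-Nd5, mt-Nd6, mt-Cytb and mt-Co1; the other protein genes of the mitochondrial genome were not analysed here.

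All mice were described as carrying Cx3cr1-er-Cre, a Cre recombinase driven from the Cx3cr1 locus and switched on by tamoxifen, and the Td-Tomato-LoxSTOP reporter. TFEB-TG mice also carried TFEB-LoxP-STOP, a TFEB cassette behind a floxed stop, and TFEB-wt mice did not. Tamoxifen was given for 7 days, ischemia lasted 90 min, and cardiac macrophages were sorted 7 days later into CCR2pos and CCR2neg fractions. In each fraction the groups were mac-TFEB (TFEB-TG with Cre, 4 libraries), CX3CR1-Cre (TFEB-wt with Cre, 5 libraries), TFEB-TG Cre-neg (4 libraries) and TFEB-wt Cre-neg (5 libraries), 36 libraries in all. The series text describes Cre-neg samples as lacking Cre, although the strain description lists the Cre for every mouse; the labels do not say how the Cre-neg cells were set apart in the sort. A TFEB-TG label number from 1 to 4, or a TFEB-wt number from 1 to 5, recurs in all 4 groups of that genotype, and no label says that it marks an animal. Nor does any label tie each library to its own animal, and p-values therefore reflect only how these libraries vary, which may be partly technical.

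Oxidative phosphorylation passes electrons from NADH and succinate through complexes I to IV of the inner mitochondrial membrane, and complex V (ATP synthase) uses the resulting proton gradient to make ATP. Complex II is built entirely from nuclear genes, whereas complexes I, III, IV and V join nuclear subunits to a few made inside the mitochondrion, whose genome is copied as long transcripts that are cut into single messages. In macrophages the balance between this pathway and glycolysis is known to shift with activation state. TFEB, the factor expressed here, is best known as an activator of lysosomal and autophagy genes.

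Total counts per library were between 13797484 and 32645783. Tfeb averaged 187.6 ± 126.6 CPM (counts scaled to a common library size) in CCR2neg mac-TFEB cells and 7.91 ± 0.92 CPM in CCR2neg CX3CR1-Cre cells (SD, n = 4 and 5), and 158.3 ± 110.9 CPM in CCR2pos mac-TFEB cells and 6.54 ± 2.94 CPM in CCR2pos CX3CR1-Cre cells. TFEB-TG Cre-neg cells, described as lacking Cre, had 21.1 ± 10.6 CPM of Tfeb in the CCR2neg fraction, against 6.65 ± 2.48 CPM in TFEB-wt Cre-neg cells, and 38.8 ± 15.2 CPM in the CCR2pos fraction, against 6.06 ± 0.77 CPM. Ccr2 averaged between 651 and 868 CPM in the 4 CCR2pos groups and between 47.2 and 73.7 CPM in the 4 CCR2neg groups. Cx3cr1 differed by Cre status. In CCR2neg cells it averaged 357 CPM in mac-TFEB against 239 in TFEB-TG Cre-neg, and 430 in CX3CR1-Cre against 212 in TFEB-wt Cre-neg. In CCR2pos cells these means were 387 against 352 CPM, and 428 against 279 CPM. The summed CPM of 8 macrophage markers lay between 26506 and 41786 in every library. Markers of other cells were uneven. CCR2neg TFEB-TG Cre-neg library 1 held 523 CPM of 12 cardiomyocyte markers, the other 35 libraries 107 CPM or less. The sum of 5 fibroblast markers was highest in TFEB-wt Cre-neg library 4 of the CCR2neg fraction (424 CPM, group median 64.0) and of the CCR2pos fraction (421 CPM, group median 120.1), in CCR2neg TFEB-TG Cre-neg library 1 (417 CPM) and in CCR2neg CX3CR1-Cre library 4 (309 CPM).

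Mitochondrially encoded messages were among the most abundant of the set per length. On a scale of mean CPM per kilobase of transcript, over all libraries, mt-Cytb, the cytochrome b of complex III, reached 1884, mt-Nd1, a membrane subunit of complex I, 1627, and mt-Co1, the catalytic subunit of complex IV, 1249. The least abundant of the 7, mt-Nd5, a proton-pumping subunit of complex I, stood at 365 CPM per kb; Cox4i1, the common form of a regulatory subunit of complex IV, was the only nuclear member above it, at 608. The other complexes were led by Sdhb, the iron-sulfur subunit of complex II, at 227 CPM per kb, Uqcrh, a hinge subunit of complex III, at 218, Atp5a1, the alpha subunit of ATP synthase, at 218, and Ndufa7, an accessory subunit of complex I, at 174. Assembly factors were lower, led by Ndufaf2 at 22.4 CPM per kb. Ndufb2 at 1.21, Atp5g1 at 0.764, Cox8b at 2.11, Ndufaf4 at 3.79, Uqcrfs1 at 31.7 and Sdhc at 48.8 CPM per kb were the lowest of their groups. For nuclear genes the length was that of the longest protein-coding transcript in the basic annotation. It was 4371 bases for Ndufb2 and 4715 for Atp5g1, against 360 for Cox8b, so the order depends on that choice.

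Most nuclear members varied little. Their median biological coefficient of variation was 0.154, against 0.211 over all genes tested and 0.236 for the mitochondrial members. Atp5a1 was the steadiest, with 486 CPM in its lowest and 688 CPM in its highest library. The widest spreads belonged to Ndufa4l2 (0.193 to 8.99 CPM), Cox4i2 (0.184 to 5.51 CPM), Cox5a (5.73 to 81.6 CPM), Cox8b (0.193 to 2.69 CPM) and Cox6a2 (1.73 to 23.0 CPM). Counting is uncertain for 14 nuclear and 2 mitochondrial members that share 25% or more of their 50-base stretches with other genes' transcripts, led by Atp5l (84.8%, with 14 other genes), mt-Nd4 (62.2%, Gm28439) and mt-Co1 (51.1%, Gm29216); the library kit did not mark strand.

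The promoters of 74 of the 89 nuclear members were matched to RefSeq (GRCm38.p6, 250 bases before to 50 after the start site). Motifs were searched on both strands, counting a gene once. CACGTG, the core of the element that TFEB and other bHLH factors bind, was present in 6 members (8.11%: Ndufa7, Ndufv1, Atp5f1, Atp5g1, Atp5g3 and Atp5l), against 11.8% of the 9564 tested genes with a promoter sequence. The longer TCACGTGA, which contains that core, was present in Ndufa7 alone among the members (1.35%, against 2.21% of genes). The NRF1 motif, GCGCA and GCGC with any base between them, was present in 17 members (23.0%, against 11.6%), AAGATGGCG, the YY1 motif, in 8 (10.8%, against 3.65%) and CCGGAAG, the ETS and GABP motif, in 18 (24.3%, against 20.3%). Each match is a run of letters in this window and describes no binding.

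The 3 promoters below are shown because they carry the longer TFEB-type match and one example each of the NRF1 and YY1 matches in members described further on (Ndufa7 at chr17:33824322-33824621, plus strand; Uqcrc1 at chr9:108936398-108936697, plus strand; Ndufs4 at chr13:114388045-114388344, minus strand). Capitals mark the motif on either strand, and the sequences run 5′ to 3′ along the gene.
Ndufa7: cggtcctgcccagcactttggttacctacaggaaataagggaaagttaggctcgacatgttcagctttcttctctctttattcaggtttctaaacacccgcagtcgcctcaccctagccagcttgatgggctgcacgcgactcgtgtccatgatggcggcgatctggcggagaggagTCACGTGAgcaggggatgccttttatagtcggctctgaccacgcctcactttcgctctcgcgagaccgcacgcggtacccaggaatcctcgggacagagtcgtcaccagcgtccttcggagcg
Uqcrc1: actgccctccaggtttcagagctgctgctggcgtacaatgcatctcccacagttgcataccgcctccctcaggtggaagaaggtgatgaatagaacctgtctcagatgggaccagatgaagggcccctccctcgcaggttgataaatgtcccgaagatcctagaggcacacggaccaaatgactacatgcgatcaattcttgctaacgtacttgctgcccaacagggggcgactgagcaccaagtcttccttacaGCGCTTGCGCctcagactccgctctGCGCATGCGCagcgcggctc
Ndufs4: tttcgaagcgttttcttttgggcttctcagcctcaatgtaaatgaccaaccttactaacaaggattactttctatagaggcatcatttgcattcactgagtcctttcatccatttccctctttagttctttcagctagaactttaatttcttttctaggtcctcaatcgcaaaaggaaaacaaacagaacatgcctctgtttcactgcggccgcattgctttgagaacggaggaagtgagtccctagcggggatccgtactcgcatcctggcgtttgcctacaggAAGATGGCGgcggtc
The Ndufa7 match begins at base -73 from the start site and the Ndufs4 match at base 36 after it. Uqcrc1 holds 2 matches, the first beginning at base 6 after the start site.

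The 7 mitochondrial members together took between 0.460% and 1.30% of a library's counts, and the 89 nuclear members between 0.682% and 0.987%. The mitochondrial share was 0.570 ± 0.040% in CCR2pos mac-TFEB cells, 0.612 ± 0.205% in CCR2pos CX3CR1-Cre cells, 0.691 ± 0.130% in CCR2pos TFEB-TG Cre-neg cells and 0.816 ± 0.252% in CCR2pos TFEB-wt Cre-neg cells (SD, n = 4, 5, 4 and 5). In the CCR2neg fraction it was 0.683 ± 0.048% in mac-TFEB cells, 0.760 ± 0.171% in CX3CR1-Cre cells, 1.07 ± 0.21% in TFEB-TG Cre-neg cells and 0.890 ± 0.197% in TFEB-wt Cre-neg cells. The nuclear share stayed between 0.747% and 0.850% on average in every group. In bulk samples, fewer cells of a type and less RNA per cell cannot be told apart, and a share can also move because other genes do.

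**Figure D1:**
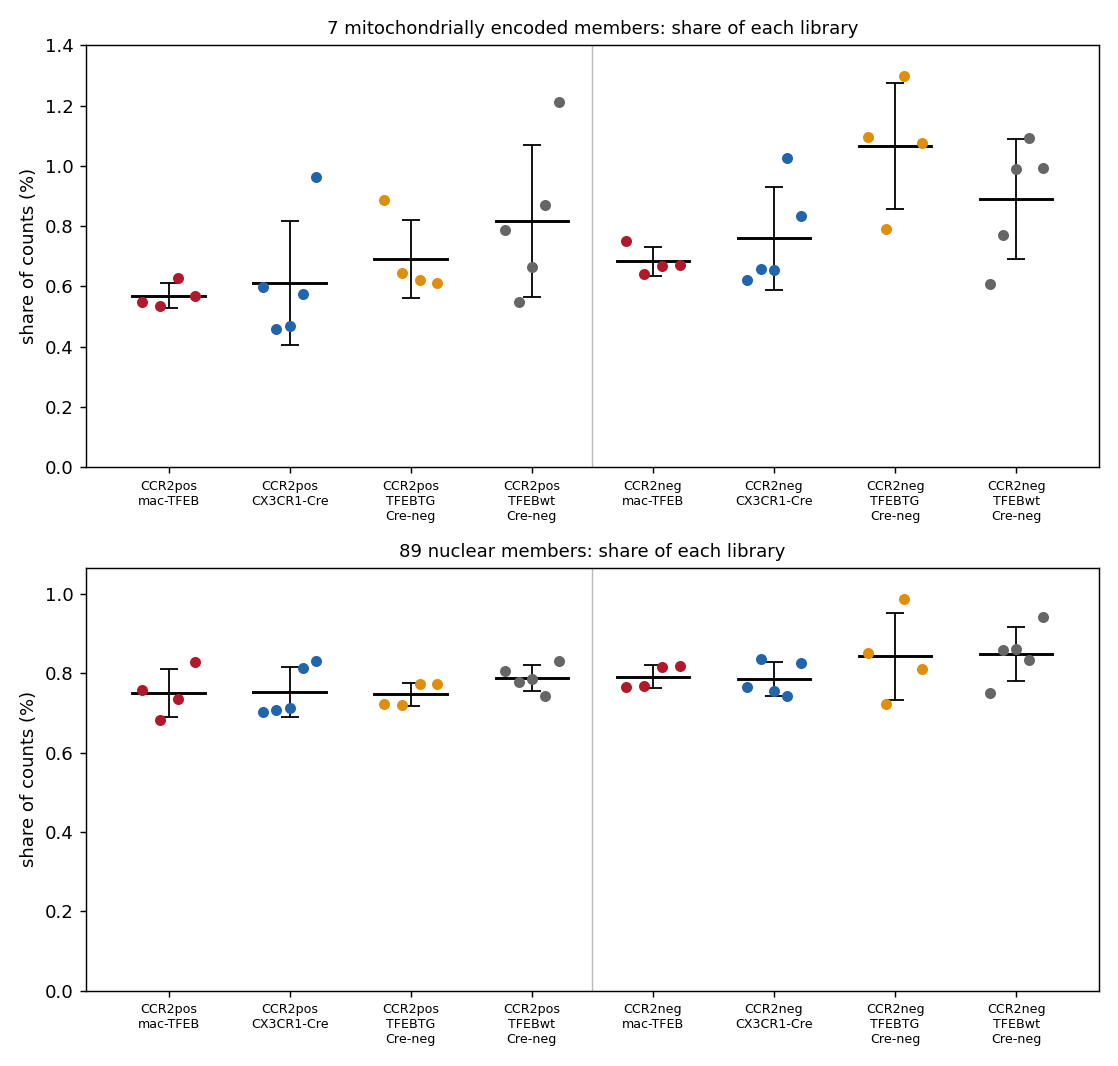
Share of each library's counts (%) in the 7 mitochondrially encoded members (top) and the 89 nuclear members (bottom), 1 point per library, with the group mean and SD in black. The CCR2neg TFEB-TG Cre-neg libraries hold the highest mean mitochondrial share (1.07%) and mac-TFEB groups the narrowest spread.

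In the CCR2neg fraction, mac-TFEB cells had lower mitochondrial messages than Cre-neg cells of the same genotype. The mitochondrial share was 0.752, 0.642, 0.668 and 0.670% in mac-TFEB libraries 1 to 4, against 1.10, 0.791, 1.30 and 1.07% in Cre-neg libraries 1 to 4. All 4 mac-TFEB libraries were below all 4 Cre-neg libraries. mt-Nd1 had 1343, 1411, 1394 and 1370.0 CPM in mac-TFEB libraries, against 1882, 1745, 2806 and 2131 CPM in Cre-neg libraries, and mt-Cytb had 1994, 1827, 1818 and 1787 CPM, against 2792, 2392, 3537 and 2876 CPM in the same order. For both genes the groups did not overlap, and Cre-neg library 3 was the highest.

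On the log2 scale the 7 differences lay between -0.68 and -0.57. None passed edgeR's quasi-likelihood test at a Benjamini-Hochberg adjusted p of 0.05 over all genes, with mt-Nd1 the nearest (log2 difference -0.63 ± 0.19 SE, adjusted p = 0.207); 0 of 89 nuclear members passed either, and 0.156% of all genes did. All 7 and 1 nuclear member had an unadjusted p below 0.05, all lower, against 7.66% of all genes, 3.5% lower. With the label number as a block, 5 of the 7 fell: mt-Cytb by 0.64 ± 0.14 (adjusted p = 0.00856), mt-Nd1 by 0.62 ± 0.14 (0.0109), mt-Nd2 by 0.67 ± 0.16 (0.0201), mt-Nd5 by 0.56 ± 0.14 (0.0284) and mt-Nd4 by 0.61 ± 0.16 (0.0325). In that fit mt-Co1 (-0.60 ± 0.18, adjusted p = 0.0874) and mt-Nd6 (-0.58 ± 0.20, 0.137) did not pass, no nuclear member did, and 2.35% of all genes were called, 1.13% lower. Every one of the 7 was lower in mac-TFEB in 4 of 4 label numbers. The share of all genes lower in 4 of 4 is not given here, so this count has no background to be read against. The 7 messages come from 1 genome and are not independent of each other.

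The blocked calls depended on single libraries. Without Cre-neg library 3 or without mac-TFEB library 3 none of the 7 was called. Without Cre-neg library 1, the library with the cardiomyocyte markers, 3 were, where 1.59% of all genes were called. Without Cre-neg library 4, mac-TFEB library 1, 2 or 4 between 2 and 3 were, where 1.18% to 2.37% of all genes were called. Cardiomyocyte markers summed to between 36.4 and 69.9 CPM in the mac-TFEB libraries and, without library 1, to between 36.7 and 66.0 CPM in the Cre-neg libraries. Erythroid markers summed to between 5.96 and 11.1 CPM in mac-TFEB libraries and between 6.76 and 21.1 CPM in Cre-neg libraries, with none of the 5 at 0 in every library. Fibroblast markers summed to between 39.0 and 230.3 CPM (median 46.2) in mac-TFEB libraries and between 40.2 and 417 CPM (median 95.9) in Cre-neg libraries, highest in library 1 of both, and none of them was at 0 in every library. Neutrophil markers summed to between 75.2 and 106 CPM in mac-TFEB libraries and between 72.8 and 140.4 CPM in Cre-neg libraries. The part of these cells in the result was not tested.

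The other Cre comparisons pointed the same way for the mitochondrial share without a call. The share was below that of the Cre-neg library of the same number in 3 of 4 CCR2pos TFEB-TG pairs and 4 of 5 CCR2neg TFEB-wt pairs. It was also below in 5 of 5 CCR2pos TFEB-wt pairs, and with the CCR2neg TFEB-TG pairs this made 16 of 18. Each label number entered these pairs in both fractions, so the 18 cannot be counted as independent. The nuclear share was lower with Cre in 11 of 18. The median ratio of Cre to Cre-neg was 0.654 in CCR2neg TFEB-TG pairs, 0.879 in CCR2pos TFEB-TG pairs, 0.856 in CCR2neg TFEB-wt pairs and 0.760 in CCR2pos TFEB-wt pairs. In CCR2pos TFEB-wt cells, mt-Nd5 differed by -0.43 ± 0.20 and all 7 were lower in 5 of 5 pairs. The share of all genes lower in 5 of 5 is not given here, and the 7 messages come from 1 genome. None of the 7 passed edgeR's quasi-likelihood test with the block (smallest adjusted p = 0.112, for mt-Nd5, where 1.05% of all genes passed) or without it (0.00782% of all genes). There 1 mitochondrial and 0 nuclear members had an unadjusted p below 0.05 without the block, against 5.64% of all genes.

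**Figure D2:**
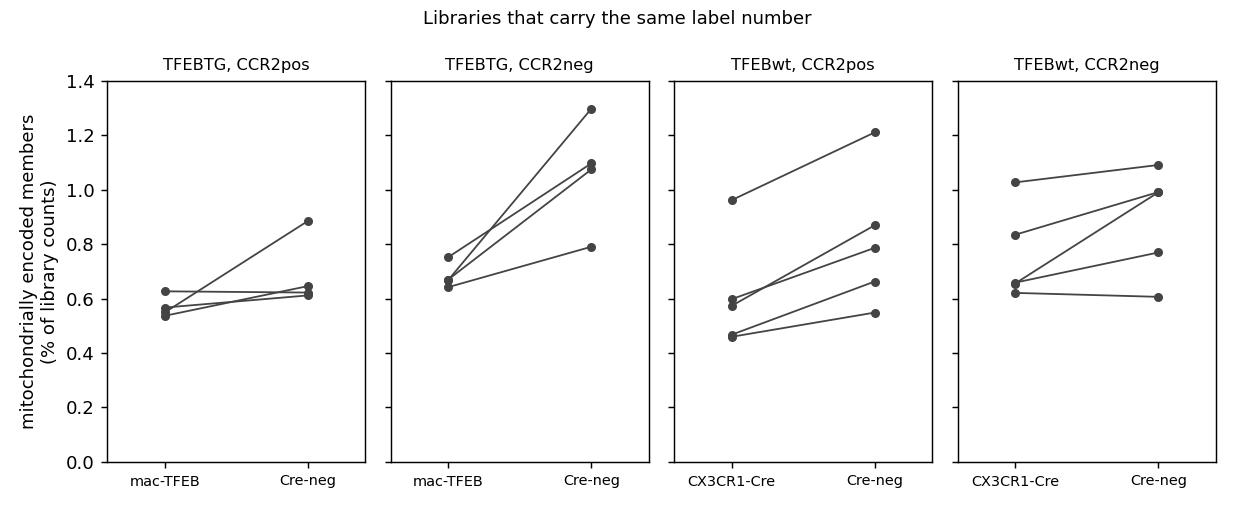
Share of counts (%) in the 7 mitochondrially encoded members in mac-TFEB or CX3CR1-Cre cells (left of each panel) and Cre-neg cells (right), with lines joining libraries of the same label number. The line runs upward to the Cre-neg library in 16 of 18 pairs.

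The difference by Cre status was compared between genotypes. TFEB-TG Cre-neg cells already averaged more Tfeb than TFEB-wt Cre-neg cells, and the labels do not say how Cre-neg cells were set apart. TFEB and other differences between these cells therefore cannot be told apart. What was tested was the difference between the TFEB-TG and TFEB-wt values for Cre status. In the CCR2neg fraction that difference lay between -0.56 and -0.33 log2 units for the 7 mitochondrial members, with mt-Nd1 at -0.40 ± 0.25 and mt-Nd2 at -0.55 ± 0.34, and no member passed edgeR's quasi-likelihood test (adjusted p = 0.999 for both; 0% of all genes). With the block, mt-Nd2 had an adjusted p of 0.562, and 0.25% of all genes passed. At an unadjusted p below 0.05 there were 2 nuclear members, against 3.88% of all genes. In the CCR2pos fraction the 7 values lay between 0.01 and 0.21, and no member had an unadjusted p below 0.05, against 1.13% of all genes. Among nuclear members the lowest unadjusted p in the CCR2neg fraction were those of Cox8b (-2.06 ± 0.76, adjusted p = 0.999) and Atp5a1 (0.21 ± 0.10, adjusted p = 0.999). Cox8b, a muscle form of a complex IV subunit, was scarce, at 2.69 CPM or less in every library.

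TFEB overexpression, mac-TFEB against CX3CR1-Cre, left no called change in either fraction. In CCR2neg cells 0 of 89 nuclear and 0 of 7 mitochondrial members passed edgeR's quasi-likelihood test, against 1.38% of all genes, and in CCR2pos cells 0 and 0, against 0.0391%. DESeq2 also called 0 members in both fractions. At an unadjusted p below 0.05 there were 4 nuclear members in CCR2neg cells (4.49%, all lower, against 14.6% of all genes, 7.39% lower) and 0 in CCR2pos cells (against 4.62%). The median log2 difference of the nuclear members was 0.04 in CCR2neg cells, where that of all genes was 0.01, and -0.08 in CCR2pos cells, where that of all genes was -0.00415. The 95% interval lay within a 2-fold change in either direction for 81 of the 89 nuclear members in CCR2neg cells and 84 in CCR2pos cells, and for all 7 mitochondrial members in both.

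The 4 nuclear members with the lowest p in CCR2neg cells were all lower in mac-TFEB. Atp5d, the delta subunit of ATP synthase, had 108, 91.4, 75.8 and 68.1 CPM in mac-TFEB libraries, against 113, 107, 121, 98.0 and 120.2 CPM in CX3CR1-Cre libraries (-0.38 ± 0.17, adjusted p = 0.289). One mac-TFEB library lay inside the range of the CX3CR1-Cre libraries. Uqcrc1, a core subunit of complex III, had 288, 275, 262 and 271 CPM in mac-TFEB libraries, against 282, 328, 375, 329 and 342 CPM in CX3CR1-Cre libraries (-0.27 ± 0.12, adjusted p = 0.290). Here too 1 mac-TFEB library overlapped the lowest CX3CR1-Cre library. Uqcrfs1, the Rieske iron-sulfur protein of complex III, differed by -0.94 ± 0.43 (adjusted p = 0.297) and Cox8b by -1.20 ± 0.55 (0.302). With limma-voom quality weights Uqcrfs1, Atp5d and Ndufa4l2 were called, as were 1351 of all 12795 genes.

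Mitochondrial members differed by between -0.43 and -0.03 in CCR2neg cells, with mt-Nd2 at -0.43 ± 0.24 and mt-Cytb at -0.19 ± 0.21, and by between -0.23 and -0.09 in CCR2pos cells. mt-Nd2 had 382, 344, 331 and 348 CPM in CCR2neg mac-TFEB libraries, against 375, 391, 429, 622 and 551 CPM in CX3CR1-Cre libraries. The groups overlapped at mac-TFEB library 1. The members whose promoters hold CACGTG, the core within the capitals of the Ndufa7 sequence, differed by between -0.08 and 0.10 in CCR2neg cells and between -0.21 and 0.01 in CCR2pos cells; Ndufa7 itself stood at 0.03 ± 0.13 and -0.14 ± 0.14. In CCR2pos cells the lowest p belonged to complex I genes, Ndufab1, an acyl carrier protein (-0.33 ± 0.19), Ndufs3, a core subunit (-0.22 ± 0.13), and Ndufa6 (-0.22 ± 0.13), each with an adjusted p of 1. No member's TFEB effect differed between the fractions by that test (0% of all genes, with or without the block; 0 members at an unadjusted p below 0.05, against 3.95% of all genes). The same held for the difference by Cre status in TFEB-wt cells (0% of all genes), where 1 member, Ndufaf1, had an unadjusted p below 0.05, against 4.1% of all genes.

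**Figure D3:**
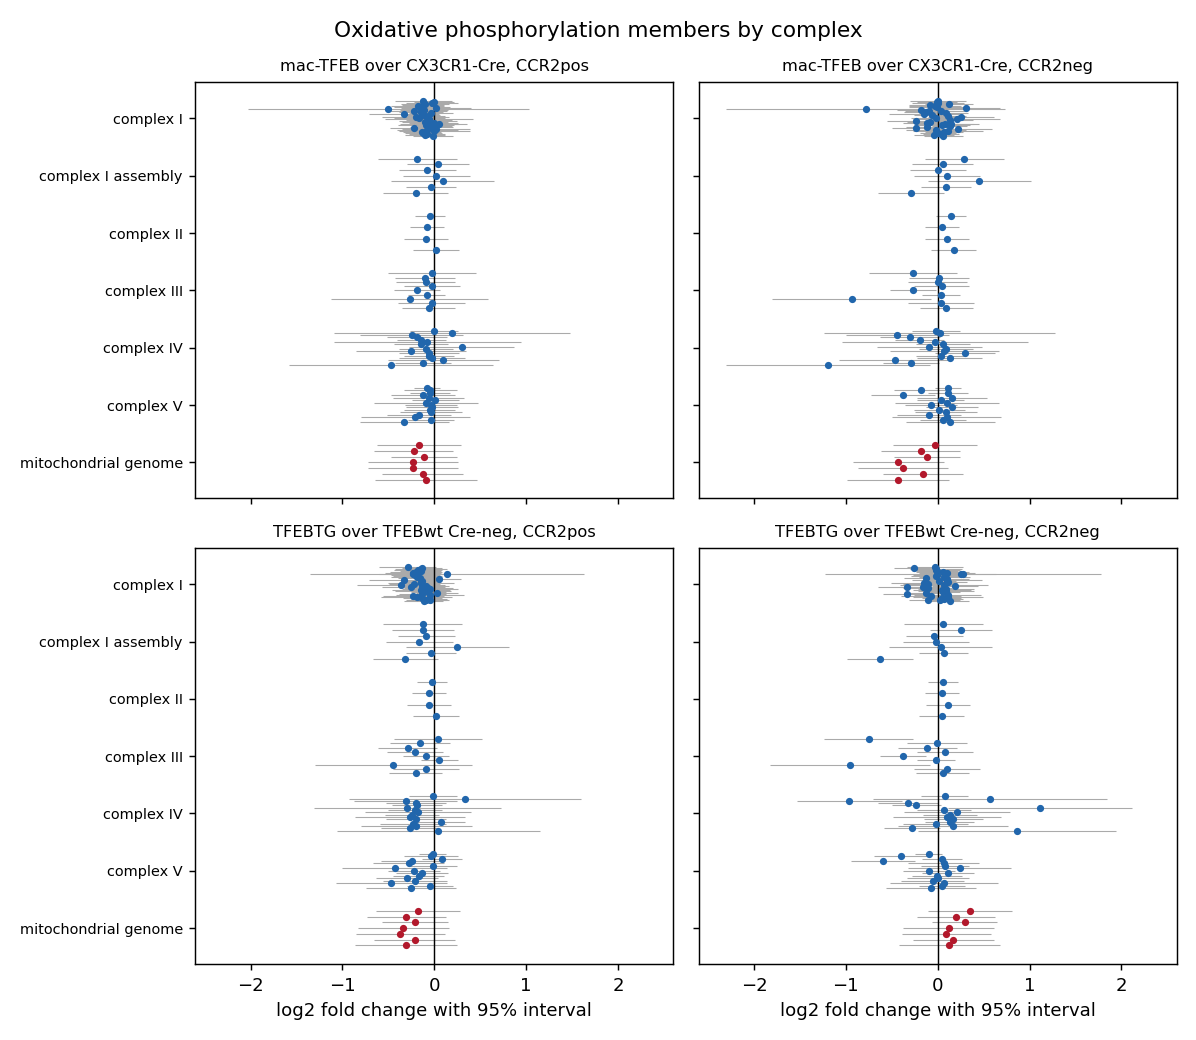
Log2 fold change of each member with its 95% interval, by complex, for mac-TFEB over CX3CR1-Cre (top) and TFEB-TG over TFEB-wt Cre-neg cells (bottom), in CCR2pos (left) and CCR2neg (right) cells. Nuclear members (blue) centre near 0, and the wide intervals belong to genes of few counts or uneven libraries such as Uqcrfs1 and Cox8b.

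The cassette in cells labelled Cre-neg was compared between TFEB-TG and TFEB-wt, a comparison the series text gives as a filter for the TFEB result. These TFEB-TG cells averaged more Tfeb, at 21.1 against 6.65 CPM in CCR2neg and 38.8 against 6.06 CPM in CCR2pos cells. The cassette and this Tfeb cannot be told apart here. No member passed edgeR's quasi-likelihood test in CCR2neg cells (0.406% of all genes did) or in CCR2pos cells (0.0313%, and 0 members at an unadjusted p below 0.05, against 3.07% of all genes). In CCR2neg cells 12 nuclear members (13.5%) had an unadjusted p below 0.05, against 13.1% of all genes; 11 of them were lower, against 8.35% of all genes. Ndufaf8, a complex I assembly factor, had 8.14, 7.41, 10.4 and 8.83 CPM in TFEB-TG libraries, against 13.3, 11.9, 12.9, 11.5 and 17.8 CPM in TFEB-wt libraries (-0.63 ± 0.18, adjusted p = 0.0864). These groups did not overlap. Atp5d differed by -0.59 ± 0.17 (adjusted p = 0.0908), Uqcrc1 by -0.37 ± 0.12 (0.143) and Atp5b, the catalytic beta subunit of ATP synthase, by -0.40 ± 0.14 (0.188).

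Cyc1, the cytochrome c1 of complex III, and Cox5a, a subunit of complex IV, were also among the 12 (-0.75 ± 0.24, adjusted p = 0.125, and -0.96 ± 0.28, 0.0921), as was Uqcrfs1 (-0.96 ± 0.43, 0.323). Cyc1 had 67.6, 32.4, 11.0 and 32.9 CPM in CCR2neg TFEB-TG Cre-neg libraries, against 53.8, 57.5, 62.2, 54.5 and 73.9 CPM in TFEB-wt Cre-neg libraries. Cox5a had 53.6, 30.3, 5.73 and 35.6 CPM in the TFEB-TG libraries, against 52.4, 54.6, 65.1, 51.1 and 81.6 CPM in the TFEB-wt libraries. Both genes were far lowest in TFEB-TG library 3 and inside the TFEB-wt range in library 1. Without library 3 the differences were -0.45 and -0.61, without library 1 they were -1.24 and -1.34 and both were called (with 440 of all 12795 genes), and DESeq2 called them together with Ndufaf8 and Atp5d (with 288 of all genes). Cox5a shares 32.0% of its 50-base stretches with other transcripts. In CCR2pos cells the lowest p were those of Ndufa1 (-0.29 ± 0.15), Uqcr11 (-0.29 ± 0.16) and Ndufaf8 (-0.31 ± 0.18), each with an adjusted p of 1.

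Of the 4 comparisons of CCR2pos with CCR2neg cells, that in TFEB-TG Cre-neg cells gave the member calls. Without a block no member passed edgeR's quasi-likelihood test there (3.26% of all genes did), although 22 nuclear members (24.7%, against 15.9% of all genes) and 4 of the 7 mitochondrial members had an unadjusted p below 0.05, 19 and 4 of them lower, against 7.28% of all genes, and the nuclear median was -0.18, against -0.03 for all genes. With the label number as a block, 9 of the 89 nuclear and 5 of the 7 mitochondrial members were called by that test, where 9.6% of all genes were. The count of nuclear members was near that share of all genes. Of the nuclear members 7 fell and 2 rose in CCR2pos cells, and of all genes 3.34% fell and 6.26% rose.

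The 7 lower calls came from 5 of the 38 genes named for complex I, 1 of the 7 assembly factors and 1 of the 16 genes of complex IV. Ndufb10, an accessory subunit of complex I, had 92.8, 93.1, 102 and 99.4 CPM in CCR2pos libraries, against 111, 115, 145 and 118 CPM in CCR2neg libraries. The groups did not overlap, and the blocked fall was 0.33 ± 0.08 (adjusted p = 0.00712; 0.0550 without the block). Ndufs1, the large iron-sulfur core subunit, had 66.1, 63.1, 61.0 and 55.9 CPM in CCR2pos libraries, against 81.8, 84.4, 66.2 and 76.7 CPM in CCR2neg libraries, and fell by 0.33 ± 0.09 (adjusted p = 0.0220). The highest CCR2pos and lowest CCR2neg values, 66.1 and 66.2 CPM, nearly met. Ndufv3 fell by 0.31, Ndufs7, a core subunit of the electron path, by 0.28 and Ndufaf2, an assembly factor, by 0.48.

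Cox7a2, the common form of a small subunit of complex IV, had 53.1, 57.2, 68.9 and 58.1 CPM in CCR2pos libraries, against 73.2, 62.8, 107 and 84.3 CPM in CCR2neg libraries, and fell by 0.44 ± 0.13 (adjusted p = 0.0279). Ndufa4, counted here with complex I by its name but known as a subunit of complex IV, fell by 0.44 ± 0.13 (0.0285). Cyc1 and Cox5a rose by 0.65 ± 0.20 (0.0394) and 0.85 ± 0.27 (0.0458), in 3 of 4 pairs each. Their CCR2pos values were 59.1, 45.3, 43.4 and 57.9 CPM for Cyc1 and 52.2, 48.1, 49.7 and 53.4 CPM for Cox5a, beside the CCR2neg values given above. Without CCR2neg library 3 neither was called (0.33, adjusted p = 0.183, and 0.42, 0.126).

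The mitochondrial members called in this comparison were mt-Cytb, which fell by 0.58 ± 0.14 (adjusted p = 0.00661), mt-Nd1 by 0.54 ± 0.14 (0.0109), mt-Nd5 by 0.48 ± 0.14 (0.0294), mt-Co1 by 0.59 ± 0.18 (0.0386) and mt-Nd4 by 0.48 ± 0.16 (0.0477). mt-Cytb had 2557, 1918, 1709 and 1602 CPM in CCR2pos libraries 1 to 4, beside the CCR2neg values of 2792, 2392, 3537 and 2876 CPM. The groups overlapped at CCR2pos library 1, while every CCR2pos library was below the CCR2neg library of its number. The CCR2neg Cre-neg libraries are the same ones that served the Cre comparison above, so the 2 sets of mitochondrial calls share them. CCR2neg Cre-neg library 3 held the highest TMM-scaled CPM of 43 of the 89 nuclear members (48.3%) among the 36 libraries. It held the highest value of 7.45% of all genes by CPM without TMM scaling, so the 2 shares are not on 1 scale. Without CCR2neg Cre-neg library 3 the blocked comparison called 4 nuclear and 1 mitochondrial members, where 8.49% of all genes were called. Without CCR2pos library 4 it called 2 and 1 (6.49% of all genes), and without CCR2pos library 3 it called 3 and 0 (6.64%). Fibroblast markers summed to between 69.7 and 162 CPM in the CCR2pos libraries and between 40.2 and 417 CPM in the CCR2neg libraries, and neutrophil markers to between 109 and 144 CPM and between 72.8 and 140.4 CPM in the same order; their part in the result was not tested.

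**Figure D4:**
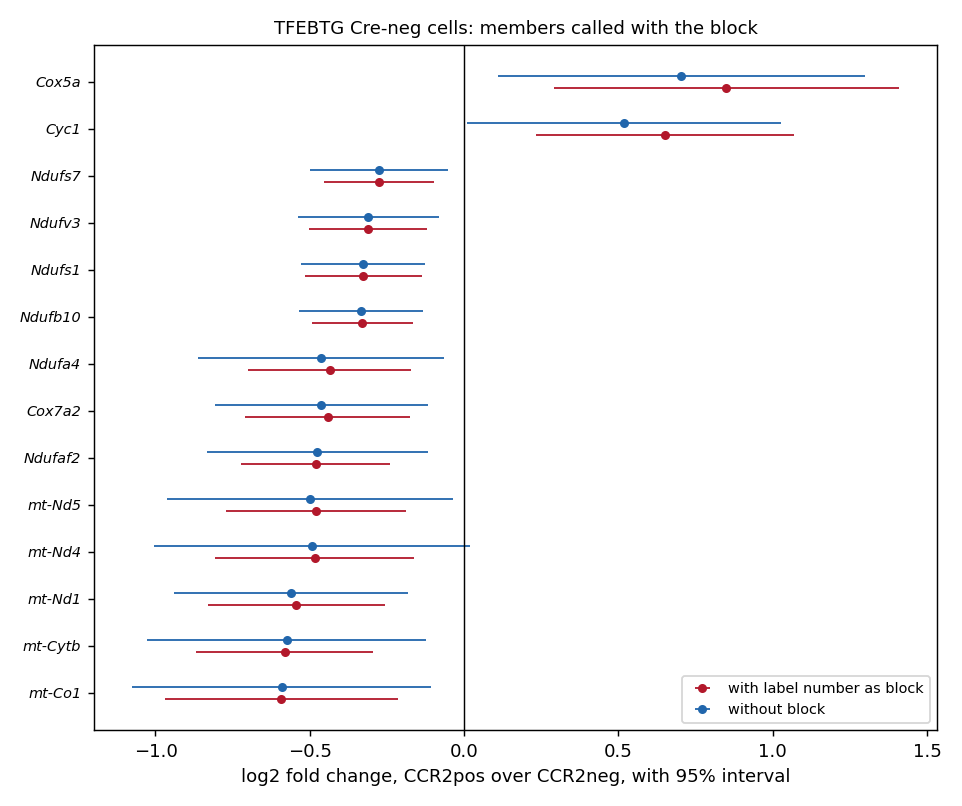
Log2 fold change of CCR2pos over CCR2neg TFEB-TG Cre-neg cells with its 95% interval, for the 14 members called with the label number as a block (red) and for the same members without it (blue). Cox5a and Cyc1 lie right of 0 and the other 12 left of it, and the intervals are narrower with the block.

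The other 3 fraction comparisons called no member with or without the block. In mac-TFEB cells (0.539% of all genes called without the block, 3.76% with it; 1 member and 8.46% of all genes at an unadjusted p below 0.05) the lowest p were those of Cox8a, a complex IV subunit (0.34 ± 0.16, adjusted p = 0.554), Uqcrc2 (-0.18 ± 0.11, 0.719) and Sdhc (-0.20 ± 0.12, 0.740). In CX3CR1-Cre cells (0.797% and 4.31%; 3 members and 11% of all genes at that p) they were Atp5s (0.52 ± 0.23, 0.369), Ndufaf1 (0.43 ± 0.20, 0.407) and Ndufc2 (0.30 ± 0.14, 0.437), all higher in CCR2pos cells. In TFEB-wt Cre-neg cells (2.35% and 6.31%; 3 members and 11.2%) they were Uqcrc2 (-0.23 ± 0.10, 0.308), Ndufs1 (-0.21 ± 0.09, 0.321) and Ndufb10 (-0.18 ± 0.09, 0.416). The mitochondrial share was lower in the CCR2pos library in 15 of 18 pairs over the 4 comparisons, and the nuclear share in 14 of 18. Each label number entered these pairs with and without Cre, so they too cannot be counted as independent. The difference between TFEB-TG and TFEB-wt Cre-neg cells in the fraction effect was not tested.

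In CCR2neg TFEB-wt cells, CX3CR1-Cre against Cre-neg, 0 members passed without the block (2.6% of all genes did) and 2 with it (7.54%; 4.13% lower and 3.41% higher). Without the block 7 nuclear members had an unadjusted p below 0.05, against 13.1% of all genes. Ndufs4, an accessory subunit of complex I needed for its assembly, had 39.1, 40.0, 24.5, 35.4 and 40.0 CPM in CX3CR1-Cre libraries, against 37.0, 55.9, 40.1, 50.6 and 54.7 CPM in Cre-neg libraries, and fell by 0.42 ± 0.11 (adjusted p = 0.0137), in 4 of 5 pairs. The groups overlapped at Cre-neg library 1. Cox6b2, the testis form of a complex IV subunit, had 3.86, 3.26, 3.28, 4.34 and 3.80 CPM in CX3CR1-Cre libraries, against 1.99, 2.17, 1.25, 2.57 and 3.26 CPM in Cre-neg libraries, and rose by 0.75 ± 0.23 (0.0461), in 5 of 5 pairs. The groups met only at CX3CR1-Cre library 2 and Cre-neg library 5, both at 3.26 CPM. Neither call was firm to single libraries: without Cre-neg library 2 or 3, or CX3CR1-Cre library 3 or 4, no nuclear member was called. Without Cre-neg library 1, 7 of the 89 were, where 7.96% of all genes were called. Fibroblast markers summed to between 45.2 and 309 CPM in these CX3CR1-Cre libraries and between 58.9 and 424 CPM in the Cre-neg libraries, and their part in the result was not tested. Cox7a2 stood at -0.35 ± 0.15 without the block (adjusted p = 0.282). In CCR2pos TFEB-TG cells the lowest p of a nuclear member was that of Cox6b2, at 0.61 ± 0.30 and higher in 4 of 4 pairs (adjusted p = 1; 0.0156% of all genes called, and 0 members at an unadjusted p below 0.05, against 2.08% of all genes). No member was called in that comparison with the block (0.203%).

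Uqcrfs1 followed the label number in TFEB-TG libraries only. In TFEB-TG libraries 1, 2, 3 and 4 it had 53.7, 54.3, 12.9 and 19.9 CPM in CCR2pos mac-TFEB cells, 46.3, 47.3, 18.1 and 12.6 CPM in CCR2neg mac-TFEB cells, 62.0, 53.2, 30.2 and 17.7 CPM in CCR2pos Cre-neg cells and 43.2, 28.7, 13.3 and 13.9 CPM in CCR2neg Cre-neg cells. In all 4 groups numbers 1 and 2 were above numbers 3 and 4. In TFEB-wt libraries it lay between 18.6 and 70.5 CPM, and CCR2pos CX3CR1-Cre libraries 5 and 1, at 18.6 and 26.1 CPM, were the lowest. Numbers 5 and 1 were not as low in the other TFEB-wt groups. The lowest library there had 54.1 CPM (CCR2neg CX3CR1-Cre), 45.1 CPM (CCR2pos Cre-neg) and 32.8 CPM (CCR2neg Cre-neg).

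Tissue-restricted forms of the subunits were scarce. Cox6a2 and Cox8b, known from heart and skeletal muscle, and Cox7a1, of the same tissues, averaged at most a few CPM in most groups, as did Cox4i2, a lung form, and Ndufa4l2, a hypoxia-responsive relative of Ndufa4. CCR2neg TFEB-TG Cre-neg library 1 held the highest value of each of these 5: 23.0 CPM of Cox6a2, 2.69 CPM of Cox8b, 5.84 CPM of Cox7a1, 5.51 CPM of Cox4i2 and 8.99 CPM of Ndufa4l2. Cox6b2, the sixth form in the set, did not follow: its highest values were 4.92 CPM in CCR2pos mac-TFEB library 1 and 4.90 CPM in CCR2pos CX3CR1-Cre library 4, against 3.48 CPM in CCR2neg TFEB-TG Cre-neg library 1. That Cre-neg library held 198 CPM of Tnnt2, a cardiac troponin, and 80.3 CPM of Myh6, the cardiac alpha myosin heavy chain. It also held 417 CPM of the fibroblast markers, and the part of either kind of RNA in these values was not tested.

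**Figure D5:**
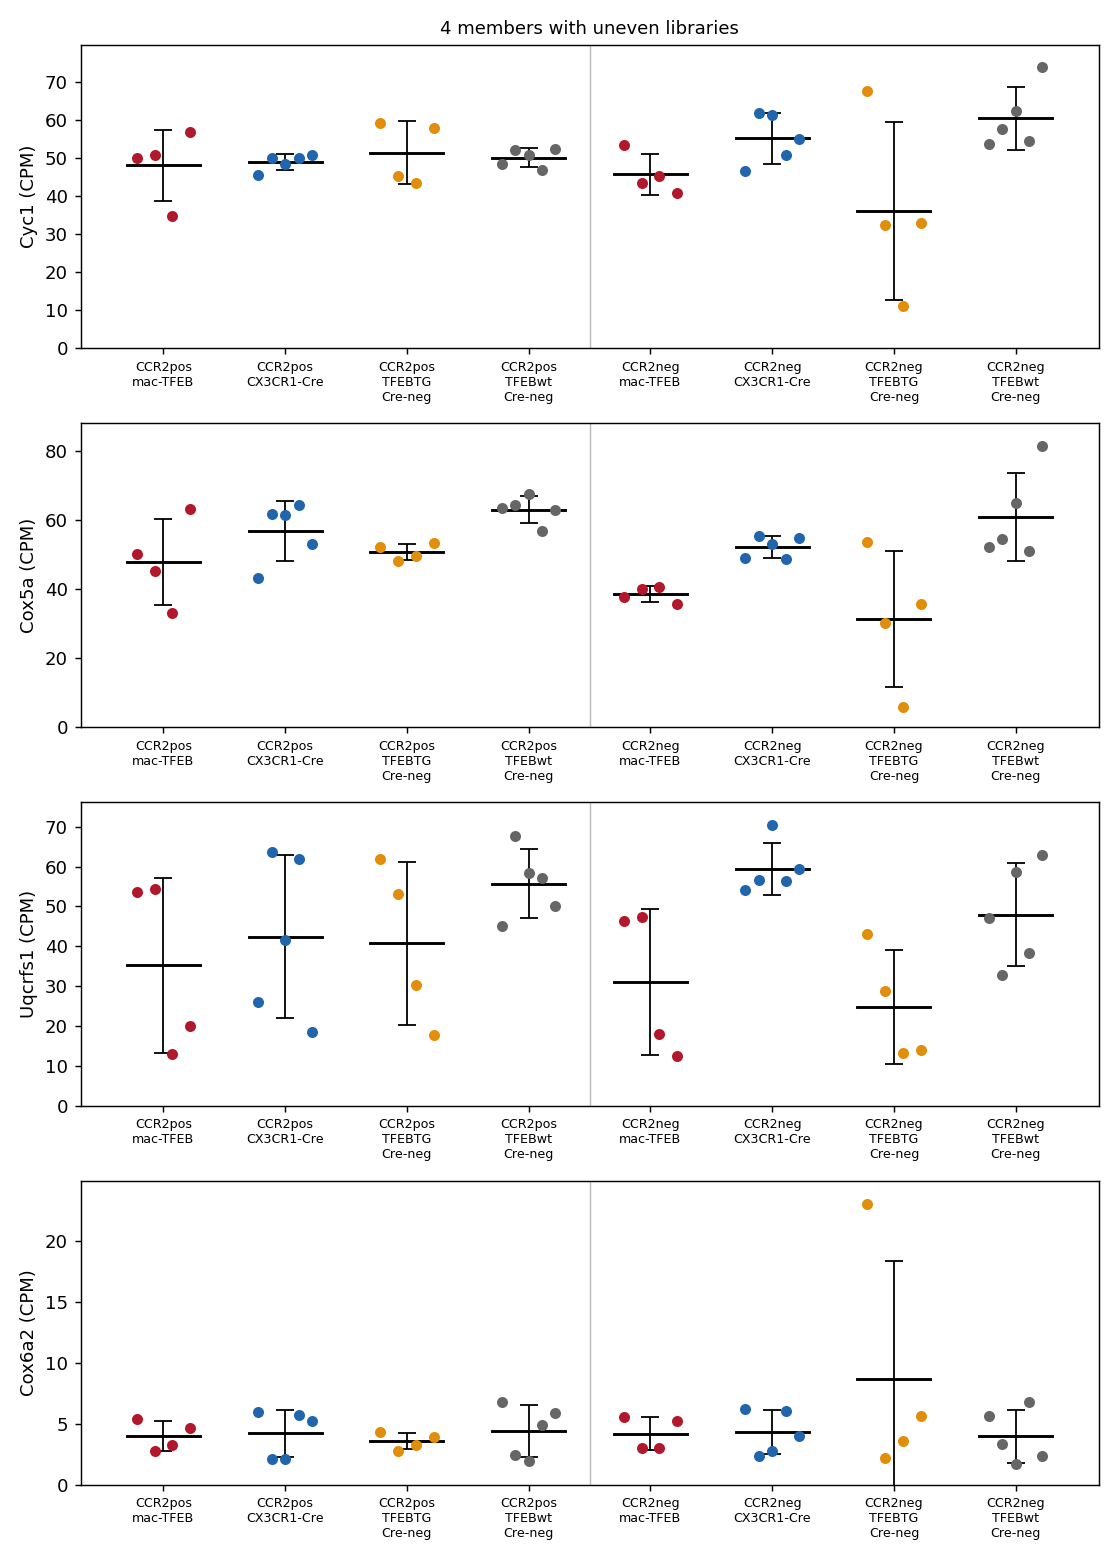
Level of Cyc1, Cox5a, Uqcrfs1 and Cox6a2 (CPM) in each library by group, with the group mean and SD in black. Cyc1 and Cox5a are lowest in CCR2neg TFEB-TG Cre-neg library 3, Cox6a2 is highest in library 1 of that group, and Uqcrfs1 splits the TFEB-TG libraries of every group.

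Other genes of the pathway were followed in 5 lists. Lists of 37 assembly factors outside the set, 19 electron carrier and adenylate exchange genes, 13 TCA cycle genes, 12 genes of mitochondrial DNA maintenance and transcription and 7 nuclear regulators of biogenesis held no call for TFEB overexpression or for the cassette in either fraction. Without the block there were 2 calls in all other comparisons, 1 each where 3.26% and 2.6% of all genes were called. Gabpb1, a subunit of the GABP factor whose motif was counted above, rose by 0.51 ± 0.14 in CCR2pos TFEB-TG Cre-neg cells relative to CCR2neg cells (adjusted p = 0.0282), and Cs, the citrate synthase, fell by 0.32 ± 0.08 in CCR2neg CX3CR1-Cre cells relative to Cre-neg cells (0.0212). With the block, 4 listed genes were called between the fractions of TFEB-TG Cre-neg cells, where 9.6% of all genes were, and 5 for Cre status in CCR2neg TFEB-wt cells, where 7.54% were. Gabpb1 and Cs were among these. Coa3 and Tmem126b, assembly factors, fell by 0.38 and 0.40 and Atpif1, the inhibitor of ATP synthase, by 0.38 in the CCR2pos TFEB-TG Cre-neg cells. In CCR2neg CX3CR1-Cre cells with the block, Mdh2, a malate dehydrogenase, fell by 0.26, Coq3 of ubiquinone synthesis by 0.54 and Tmem126b by 0.33, and Nrf1, a regulator of mitochondrial genes, rose by 0.33. Fh1, the fumarate hydratase, rose by 0.37 in CCR2pos cells both of CX3CR1-Cre and of TFEB-wt Cre-neg origin, and Cox15 by 0.37 in CX3CR1-Cre cells. Of all genes, 4.31% were called in that comparison of CX3CR1-Cre cells and 6.31% in that of TFEB-wt Cre-neg cells.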

How the data were processed

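RNA from sorted macrophages was amplified with the SMARTer Ultra Low kit and sequenced as single reads, per the labels' protocols. The authors deposited 1 table of raw read counts per gene; per the submitters' processing notes, Bowtie2, TopHat2 2.0.10, HTSeq, DESeq and edgeR were used with GRCm38, and the counting options are not given in the sources used here. Libraries were grouped by title. From the deposited counts, 8 group means were fitted over all 36 libraries with edgeR 4.0.16 (R 4.3.3), using TMM scaling and quasi-likelihood F-tests. Genes needed to pass filterByExpr (minimum count 10); all 96 members did. P-values were adjusted by the Benjamini-Hochberg method over 12795 genes, two-sided, and a gene was called at 0.05. CPM are TMM-scaled, except where the library with the highest value was counted over all genes. The sign ± is the SD for levels and the SE for log2 differences.

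The genes named were the called members of each comparison or, with fewer than 3, the 3 with the lowest p; every mitochondrial member; the highest and lowest of each complex per kilobase; tissue-restricted forms; Tfeb and Ccr2 as checks; called genes of the other lists; and markers beside a result. Cx3cr1 was a further check. Members named otherwise (Atp5d, Atp5b, Uqcrc1, Cyc1 and the promoter matches) were chosen after their values were seen. The members and lists were chosen with earlier results of these data known. Pair directions and groups without overlap are given for named members without the share of all genes, and only describe those members. Libraries of 1 genotype that share a label number mostly deviated together in comparisons within a genotype (correlations above 0.1, with the exception below). The number therefore served as a block of 9 levels beside the unblocked fit. The exception was CCR2pos against CCR2neg in TFEB-wt Cre-neg cells, where the lowest correlation was 0.0958, for number 5. That library correlated more with another number (up to 0.244). For Cre status in CCR2neg TFEB-TG cells, number 3 correlated less with its own number (0.303) than with another (up to 0.432). The block is thus less well founded for library 3, on which the mitochondrial calls of that comparison depended. Numbers did not pair TFEB-TG with TFEB-wt libraries. Alternatives were other size factors, library sizes without mitochondrial genes, other filters, DESeq2 1.42.0, limma 3.58.1 voom with quality weights, only the libraries compared, the block, and leaving out each library. The fitting script was tested on simulated data. Promoters came from RefSeq, GRCm38.p6.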

Additional observations from a re-analysis of the deposited data

Results flagged for a closer look

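Of 344 groups of values screened for a library that stood apart from the rest of its group, 24 were picked out, and chance picks about 1 in 20. In CCR2neg mac-TFEB cells, library 1 had 381 CPM of Atp5b (the others 287 to 299) and 4.71 CPM of Atp5s, the lowest of its group. In CCR2neg TFEB-TG Cre-neg cells, library 1 had 5.51 CPM of Cox4i2, 23.0 CPM of Cox6a2 and 8.99 CPM of Ndufa4l2, and library 3 had 85.7 CPM of Ndufa1 (the others 53.5 to 55.3). In CCR2pos mac-TFEB cells, library 2 was lowest for Ndufa7, at 69.1 CPM. In CCR2pos TFEB-TG Cre-neg cells, library 1 had a mitochondrial share of 0.885%, 6.85 CPM of Ndufa4l2 and 493 CPM of mt-Nd2.

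In CCR2pos CX3CR1-Cre cells, library 5 had a mitochondrial share of 0.962% (the others 0.460 to 0.598), 2457 CPM of mt-Co1, 2915 CPM of mt-Cytb, 918 CPM of mt-Nd4, 878 CPM of mt-Nd5, 9.22 CPM of Atp5s and 166 CPM of Sdhc, all the highest of the group. Library 3 of that group was highest for Ndufab1, at 14.3 CPM, and CCR2pos TFEB-wt Cre-neg library 4 was lowest for it, at 7.81 CPM. In CCR2neg CX3CR1-Cre cells, library 2 had 63.3 CPM of Ndufa1. In CCR2neg TFEB-wt Cre-neg cells, library 4 had 1.49 CPM of Cox8b, library 5 had 19.8 CPM of Ndufaf2 and 17.8 CPM of Ndufaf8, and library 1 was lowest for mt-Co1, at 938 CPM (the others 2286 to 2719).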

How the results depend on the processing

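The count of members called stayed at 0 in most comparisons and settings; those that differed follow. For the cassette in CCR2neg cells, DESeq2 called 4 nuclear members (and 288 of all genes), limma-voom quality weights 2 (102) and the replicate block as a random effect 2 (113). Leaving out single libraries called 0 to 5, with 5 without TFEB-TG library 1 (440 of all genes) and 1 without TFEB-wt library 2 (177). For TFEB overexpression in CCR2neg cells, quality weights called 3 nuclear members (and 1351 of all genes, against 176 in edgeR). For the CCR2 fraction in TFEB-TG Cre-neg cells, median-ratio size factors called 1 nuclear member (411 of all genes), DESeq2 2 nuclear and 1 mitochondrial (616), and quality weights 2 nuclear (480). Leaving out single libraries called 0 to 3 nuclear, with 3 without CCR2neg library 1 (608 of all genes) and 1 without CCR2neg library 3 (286). There the replicate block called 9 nuclear and 5 mitochondrial members (1228 of all genes). With library sizes also taken without the mitochondrial genome (chosen after seeing the data), it called 8 and 4 (1252 of all genes). Leaving out single libraries under the block, also chosen after seeing the data, gave 2 to 8 nuclear (2, 3, 4, 5, 6 and 8) and 0 to 6 mitochondrial members (0, 1, 2, 3 and 6). Between 830 and 1098 of all genes were called in those fits. For Cre status in CCR2neg TFEB-TG cells the block called 5 mitochondrial members (301 of all genes), also with those library sizes (308). Without single libraries it called 0 to 5 (0, 2, 3 and 5) with 0 to 1 nuclear. The settings with a mitochondrial call held 151 to 303 calls among all genes. For Cre status in CCR2neg TFEB-wt cells the block called 2 nuclear members (965 of all genes). Without single libraries it called 0 to 7 (0, 1, 2, 3 and 7) with 0 to 1 mitochondrial. The setting with 7 called 1018 of all genes, and those with 1, 2 or 3 called between 679 and 1002. The block changed no other call.

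In CCR2neg TFEB overexpression, 2 uncalled values near 0 changed sign. mt-Co1, at -0.03, was 0.00461 with the random-effect block and -0.11 to 0.12 without single libraries, above 0 without mac-TFEB library 2 or CX3CR1-Cre library 4 or 5. Ndufa7, at 0.03, was -0.021 to 0.083, below 0 without mac-TFEB library 2 or CX3CR1-Cre library 3. The cause of these differences was not tested. Depth limits the scarcest members, such as Cox8b, with 3 reads in its lowest library, and Cox4i2, with 5.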
